A study of Mus musculus with 6 samples.

Results

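Basigin (CD147, gene Bsg), its relatives embigin (Emb) and neuroplastin (Nptn), and the proton-coupled monocarboxylate transporters MCT1 (Slc16a1), MCT2 (Slc16a7), MCT3 (Slc16a8) and MCT4 (Slc16a3) were followed in the RNA of whole testes. These 7 genes were chosen by name and matched by symbol to the Ensembl identifiers, all 7 were among the 55536 genes counted, and 6 of them passed the filter on low counts that 21465 genes passed. KOStra8 mice have 1 floxed Sel1L allele, 1 deleted allele and Stra8-Cre, while the HETStra8 littermates are described in the deposited record as Sel1Lflox/∆ without a statement on Cre, and in the paper as a mixture of Sel1Lflox/∆ mice and Sel1Lflox/+ mice with Stra8-Cre. All 6 mice were males aged 7 weeks, with 3 mice and 3 libraries per genotype, and each HETStra8 mouse thus also lacks 1 working copy of Sel1L in at least part of its germ cells. The Stra8 promoter acts in male germ cells, and its Cre works only partly in spermatogonia according to the paper. Sertoli and other somatic cells of a KOStra8 testis keep the floxed allele beside the deleted one. Its RNA is thus a mixture of cells without a working copy and cells with 1. Somatic cells of Sel1Lflox/∆ HETStra8 mice also lack 1 working copy, while those of Sel1Lflox/+ mice with Stra8-Cre lack none.

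Basigin is a membrane glycoprotein of the immunoglobulin superfamily that escorts MCT1, MCT3 and MCT4 to the cell surface, while embigin is the usual partner of MCT2. Sertoli cells break down glucose and release lactate, which spermatocytes and spermatids take up and burn, and male mice without basigin are sterile. Misfolded or unassembled CD147 is known as a client of the ER-associated degradation complex of SEL1L and HRD1. The study examined it at the protein level. According to the paper, CD147 protein was unaffected in testes of young and old KOStra8 mice, while it was increased in a SEL1L-deficient human cell line. The counts analysed here concern only the transcripts of these genes and not their proteins.

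Basigin, embigin and neuroplastin are held in the membrane by a single helix that carries a glutamate, a charged residue in hydrophobic surroundings. To show what the family shares, the coding bases around that glutamate are printed from the longest complete coding transcript of each gene in GENCODE mouse release M21, with the glutamate codon in capitals and the 5′ end on the left.

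Bsg: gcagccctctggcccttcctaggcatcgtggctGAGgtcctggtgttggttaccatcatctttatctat
Nptn: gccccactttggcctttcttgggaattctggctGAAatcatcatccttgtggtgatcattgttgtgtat
Emb: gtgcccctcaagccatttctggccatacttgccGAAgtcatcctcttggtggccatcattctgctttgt

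These stretches are 69 bases long and are counted from the first base of the start codon. They cover coding bases 979 to 1047 of transcript Bsg-201, 1009 to 1077 of Nptn-212 and 784 to 852 of Emb-201. In other transcripts of these genes the positions can differ. Aligned at the glutamate codon without gaps, Bsg and Nptn had 43 of 69 bases in common (62.3%), Bsg and Emb 43 (62.3%), and Emb and Nptn 44 (63.8%). No 50-base sequence of the transcripts of Bsg, Slc16a1, Slc16a3 or Slc16a8 occurred in a transcript of another gene on either strand. The shares of 50-base sequences found elsewhere were 14.2% for Emb, 3.82% for Nptn and 1.35% for Slc16a7. Those of Nptn lay in Rec114, while the gene that shared the most with Emb was Gm17509. Both strands were searched together, and the strand of a match was not recorded. The strand setting of the counting is not given in the sources used here either, so reads in these shared stretches could not be assigned with certainty. GENCODE lists 6 transcripts of Bsg, 13 of Nptn, 6 of Emb and 6 of Slc16a7, and the counts per gene do not separate them.

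The 6 libraries held between 28875108 and 36526695 counts. Sel1l, the targeted gene, was at 49.3, 47.6 and 42.4 CPM (counts as a share of the library total, after TMM scaling) in HETStra8 mice 1 to 3 and at 24.2, 22.0 and 20.3 CPM in KOStra8 mice 1 to 3. Transcripts of elongating spermatids (Prm1, Prm2, Tnp1, Tnp2, Odf1 and Smcp) summed to between 10800 and 12400 CPM in every library. The defining markers of the labelled tissue were thus present. Of tissues outside the testis, 4 skeletal muscle markers summed to at most 1.75 CPM. Adipose tissue markers summed to 8.88 to 15.6 CPM in HETStra8 and 8.30 to 27.2 CPM in KOStra8 mice. Epididymis markers summed to 0.892 to 7.89 CPM in HETStra8 and 0.864 to 1.10 CPM in KOStra8 mice. These sums were uneven over the mice of a genotype. The epididymis marker Crisp1 was at 2.45 ± 3.94 CPM (mean ± SD) in HETStra8 and 0.0187 ± 0.0162 CPM in KOStra8 mice. The adipose marker Fabp4 was at 2.82 ± 1.92 CPM in HETStra8 and 5.21 ± 7.59 CPM in KOStra8 mice. Across the genes, transcripts rich in GC had the lower fold changes, with a Spearman rho of −0.46 over the tested genes, which are not independent replicates. The trend is given beside the results of the tested members and of part of the related genes.

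Levels of different genes were compared per length, as TPM (counts per kilobase of exon, scaled to the same total in each library), which is a level and not a difference between genotypes. Basigin was the most abundant member, with a mean of 723 ± 52.4 TPM (SD over the 6 mice), above 99.3% of the tested genes. MCT2 was next with 138 ± 7.88 TPM, above 93.1% of the tested genes, so that basigin exceeded it by 5.23-fold. MCT1 with 20.1 ± 0.983 TPM and neuroplastin with 18.6 ± 1.57 TPM followed, and their ranges over the mice, 18.7 to 21.4 and 16.9 to 20.8 TPM, overlapped. Embigin had 4.07 ± 0.710 TPM and MCT4 1.85 ± 0.526 TPM, and each library gave more embigin than the highest library gave MCT4. MCT3, the transporter of the retinal pigment epithelium and the choroid plexus, was at 0.0270 TPM. The order rests on the exon lengths used, since with the length of the longest transcript embigin stood at 7.72 TPM and neuroplastin, at 20.4 TPM, passed MCT1, at 16.1 TPM.

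**Figure D1:**
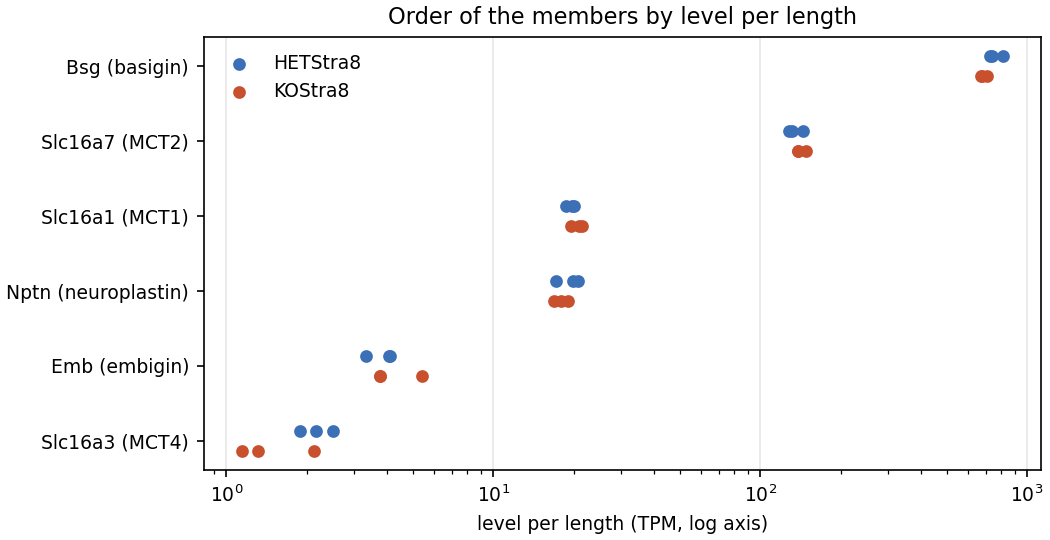
Level per length (TPM, log axis) of 6 members in each of the 3 HETStra8 and 3 KOStra8 mice, 1 point per mouse; Slc16a8, at 0 in all KOStra8 mice, is left out. Bsg lies between 670 and 815 TPM and Slc16a7 between 128 and 149 TPM, while Slc16a1 and Nptn overlap.

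Within each family a single gene gave most of the transcripts. Of the summed TPM of basigin, neuroplastin and embigin, basigin made up 97.0 ± 0.459% (SD, n = 3) in HETStra8 and 96.9 ± 0.349% (SD, n = 3) in KOStra8 testes. Neuroplastin made up 2.48 ± 0.379% and 2.54 ± 0.214%, and embigin 0.493 ± 0.0808% and 0.610 ± 0.147%. Of the summed TPM of the 4 transporters, MCT2 made up 86.1 ± 0.821% (SD, n = 3) in HETStra8 and 86.4 ± 0.728% (SD, n = 3) in KOStra8 testes, MCT1 12.5 ± 0.618% and 12.7 ± 0.993%, and MCT4 1.40 ± 0.273% and 0.925 ± 0.282%. The mean share of each gene differed between genotypes by less than 1 percentage point. For embigin, MCT4 and MCT3 this bound says little, because their shares are small to begin with. The share of MCT4 was the lower one in KOStra8 testes, at 0.925% against 1.40% (exact permutation p = 0.2). Embigin, the usual partner of MCT2, stood far below MCT2 in these transcripts, and basigin far above every transporter.

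The question put to these genes was whether their transcripts differed once SEL1L was deleted in germ cells. KOStra8 and HETStra8 testes were compared with edgeR's quasi-likelihood test at the cutoffs of the study, a 2-fold difference and an adjusted p (Benjamini-Hochberg) under 0.01, and the log2 fold change of KOStra8 over HETStra8 is written log2FC. Both cutoffs were passed by 0 of the 6 tested members, against 0.00932% of all tested genes (0.00466% higher and 0.00466% lower). The paper, which does not name its test, reported many more genes past the same cutoffs. These shares thus belong to the fit used here and not to the paper's calls, and the cause of that difference was not tested. At any fold, 0 members passed the adjusted p, against 0.0186% of all genes, and 0 passed it in DESeq2 or limma-voom. At an unadjusted p below 0.05 stood 1 member, Bsg, which was lower in KOStra8, against 5.12% of all tested genes that were lower and 7.13% that were higher at that p. The members' median log2FC was −0.05, with 3 higher and 3 lower, beside a median of −0.01 over all tested genes. In RNA of whole tissue, fewer cells of a type and less RNA per cell cannot be told apart.

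**Figure D2:**
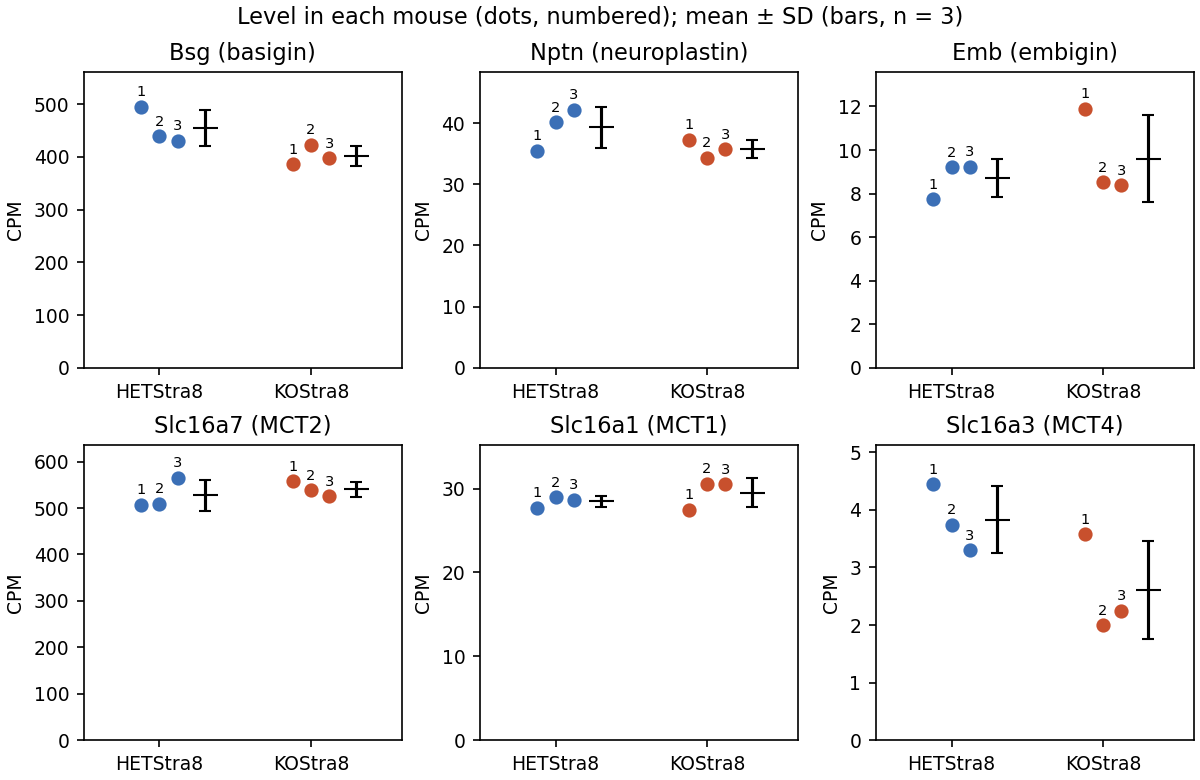
CPM of 6 members in each mouse (numbered points), with the mean ± SD of 3 mice beside them; axes start at 0. Only Bsg separates the genotypes, with KOStra8 mice at 386 to 423 CPM and HETStra8 mice at 431 to 495 CPM.

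Bsg (ENSMUSG00000023175) spans 79704491 to 79711969 of chromosome 10 (GRCm38). It was found at 495, 439 and 431 CPM in HETStra8 mice 1 to 3 and 386, 423 and 398 CPM in KOStra8 mice 1 to 3. All KOStra8 mice were below all HETStra8 mice, by a margin of a few CPM between the closest mice, a separation that 8.43% of the tested genes also showed in this direction. HETStra8 averaged 455 ± 35.2 and KOStra8 402 ± 19.0 CPM (SD, n = 3), with log2FC −0.18 ± 0.0735 (SE; edgeR adjusted p = 0.360). Its 95% confidence interval ran from −0.33 to −0.02, that is, KOStra8 levels between 0.793 and 0.986 times those of HETStra8. The exact permutation test, two-sided, gave p = 0.1, the smallest that 3 mice against 3 allow. The unadjusted p of edgeR's test, 0.0297, was 0.113 without HETStra8 mouse 1, 0.128 without KOStra8 mouse 1 and 0.0845 without KOStra8 mouse 3. The longest Bsg transcript has a GC content of 57.6%, and the 3231 tested genes between 54 and 58% GC had a median log2FC of −0.13, and 76.4% of them were lower. Corrected for GC content and transcript length, Bsg had log2FC −0.04 (edgeR adjusted p = 0.919).

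Bsg was also compared with the other genes by its pattern over the 6 mice. Among 10012 genes with at least 10 CPM, those with the highest Pearson r to log2 CPM of Bsg were Yeats4 (0.9981), Vars (0.9975), Dhrs1 (0.9967), Arfgap1 (0.9965) and Grpel1 (0.9963), over the same 6 libraries of 2 genotypes. A value above 0.9 was reached by 734 genes, so this likeness sets none of them apart. The log2 fold changes of these 5 genes lay between −0.27 for Vars and −0.03 for Yeats4, with adjusted p-values from edgeR's test between 0.231 and 0.922.

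Neuroplastin, which binds plasma membrane calcium pumps besides its role at synapses, is encoded by Nptn (ENSMUSG00000032336) on chromosome 9 from 58582240 to 58657955. It was at 35.5, 40.1 and 42.2 CPM in HETStra8 mice 1 to 3 and at 37.3, 34.3 and 35.7 CPM in KOStra8 mice 1 to 3. HETStra8 mouse 1 lay within the KOStra8 mice, so the genotypes overlapped. The log2FC was −0.14 ± 0.0965 (SE; 95% confidence interval −0.34 to 0.07; edgeR adjusted p = 0.590; exact permutation p = 0.3). At 39.5% GC, Nptn belongs to the 2311 genes between 38 and 42% GC, whose median log2 fold change was 0.22 and of which 17.4% were lower. With the correction for GC content and length Nptn stood at −0.39 (edgeR unadjusted p = 0.000278, adjusted p = 0.146), still short of the cutoff.

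Emb (ENSMUSG00000021728), on chromosome 13 from 117208536 to 117274415, was at 7.73, 9.21 and 9.24 CPM in HETStra8 mice 1 to 3 and at 11.9, 8.53 and 8.38 CPM in KOStra8 mice 1 to 3. A single mouse, KOStra8 mouse 1, was above all others, and the remaining KOStra8 mice fell within the range of HETStra8. The log2FC was 0.14 ± 0.169 (SE; 95% confidence interval −0.23 to 0.50; edgeR adjusted p = 0.782; exact permutation p = 0.6), and without KOStra8 mouse 1 it was −0.04. These values rest on 243 to 414 counts per library. Emb and Slc16a1 share the class between 42 and 46% GC, with a median log2FC of 0.10, and Emb stood at 0.08 with the correction.

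The transporters are ordered by their level. MCT2, a carrier with high affinity for lactate and pyruvate, is encoded by Slc16a7 (ENSMUSG00000020102) on chromosome 10 from 125219270 to 125389465. It was at 507, 509 and 565 CPM in HETStra8 mice 1 to 3 and at 558, 538 and 526 CPM in KOStra8 mice 1 to 3, and the KOStra8 mice all lay between the lowest and the highest HETStra8 mouse. The log2FC of Slc16a7 was 0.04 ± 0.0681 (SE; edgeR adjusted p = 0.859; exact permutation p = 0.6). Its 95% confidence interval, −0.11 to 0.18, corresponds to KOStra8 levels of 0.928 to 1.14 times those of HETStra8. Its longest transcript has 37.7% GC, and the 609 genes below 38% GC had a median log2FC of 0.39, while 10.8% of them were lower. With the correction for GC content and length Slc16a7 had a log2FC of −0.37 (edgeR unadjusted p = 8.88e-05, adjusted p = 0.0908), with the opposite sign. GC content and length were corrected together, and their parts in this change were not tested.

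**Figure D3:**
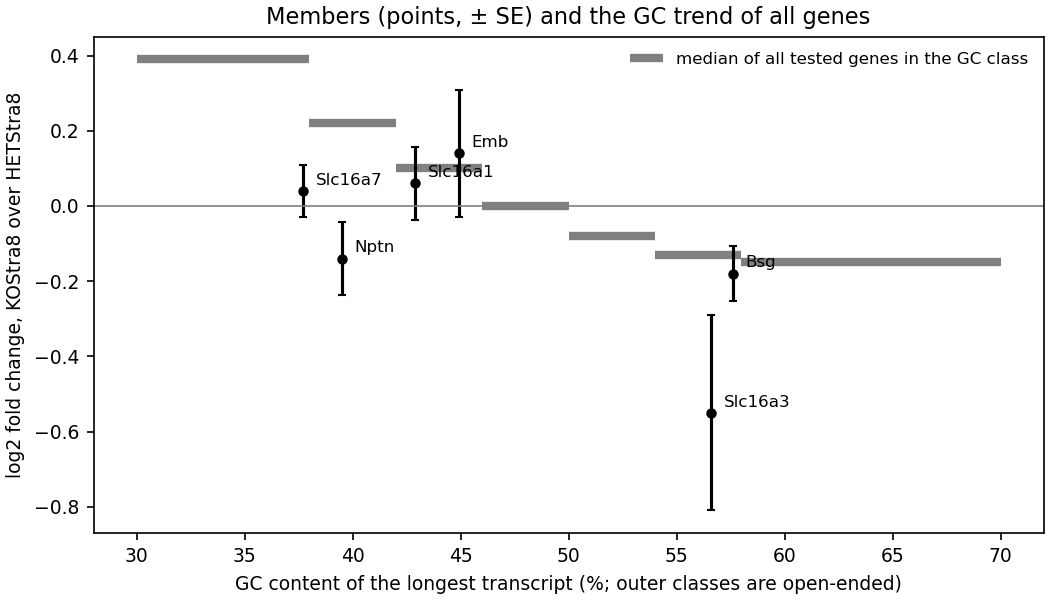
Log2 fold change of each tested member (points, ± SE) against the GC content of its longest transcript, with the median of all tested genes in 7 GC classes (grey bars). Slc16a7 and Nptn lie below the medians of their classes, 0.39 and 0.22, while Bsg lies near the median of its own, −0.13.

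MCT1, the widespread lactate carrier, is encoded by Slc16a1 (ENSMUSG00000032902) on chromosome 3 from 104638668 to 104658462. It was at 27.7, 29.0 and 28.7 CPM in HETStra8 mice 1 to 3 and at 27.5, 30.6 and 30.5 CPM in KOStra8 mice 1 to 3, and KOStra8 mice lay both below and above all HETStra8 mice. The log2FC of Slc16a1 was 0.06 ± 0.0964 (SE; 95% confidence interval −0.15 to 0.26; edgeR adjusted p = 0.851; exact permutation p = 0.4), and −0.07 with the correction for GC content and length. Per length, the ratio of MCT2 to MCT1 transcripts was 6.92 ± 0.413 (SD, n = 3) in HETStra8 and 6.86 ± 0.622 (SD, n = 3) in KOStra8 testes.

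MCT4, the exporter of cells that make much lactate and a gene induced by low oxygen, is encoded by Slc16a3 (ENSMUSG00000025161) on chromosome 11 from 120948480 to 120960868. It was at 4.45, 3.74 and 3.30 CPM in HETStra8 mice 1 to 3 and at 3.58, 2.00 and 2.25 CPM in KOStra8 mice 1 to 3. KOStra8 mice 2 and 3 were below all HETStra8 mice, and KOStra8 mouse 1 was not. The log2FC of Slc16a3 was −0.55 ± 0.259 (SE; edgeR adjusted p = 0.410; exact permutation p = 0.2), from 58 to 140 counts per library, and it was the largest of the members in size. The 95% confidence interval ran from −1.10 to 0.00, an interval that holds both a 2-fold loss and no difference at this depth. Slc16a3 lies in the same GC class as Bsg, with 56.6% GC, and stood at −0.40 with the correction for GC content and length (edgeR adjusted p = 0.757). Leaving out 1 mouse at a time moved it between −0.84 without KOStra8 mouse 1 and −0.39 without KOStra8 mouse 2.

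Markers of the other cells of the testis are set beside the values of Slc16a3 and Bsg. Of 10 Sertoli cell markers (Sox9, Wt1, Amhr2, Cldn11, Clu, Dhh, Rhox5, Fshr, Aard and Defb36) 10 had a negative log2 fold change, with a median of −0.22. Of these, 6 were lower in all KOStra8 mice than in all HETStra8 mice (8.43% of all tested genes), 4 had an unadjusted p below 0.05 (5.12% of all tested genes were lower at that p) and 0 passed the adjusted p in edgeR's test. Their summed level was 1120 to 1330 CPM in HETStra8 and 930 to 1060 CPM in KOStra8 mice, and none of the 10 was at 0. All 6 Leydig cell markers were negative as well, with a median of −0.29 and sums of 497 to 742 CPM and 418 to 537 CPM. Macrophage markers, with 4 of 5 negative, summed to 57.0 to 66.7 CPM and 52.0 to 72.2 CPM, and the medians were −0.13 for peritubular myoid, −0.24 for endothelial and −0.21 for blood markers. Among germ cell lists the median log2 fold changes were −0.01 for spermatogonia, 0.05 for leptotene and zygotene spermatocytes, −0.03 for pachytene spermatocytes, −0.11 for round spermatids and −0.03 for elongating spermatids. Separation without overlap was not limited to Sertoli markers. Lower in all KOStra8 mice were also 2 of 6 round spermatid, 1 of 6 elongating spermatid and 1 of 6 Leydig markers. The same held for 2 of 5 macrophage and 1 of 4 tested blood markers. It held for 0 markers of spermatogonia, of earlier spermatocytes, of pachytene spermatocytes, and of peritubular myoid and endothelial cells. The part of cell composition in the values of Slc16a3 and Bsg was not tested.

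Slc16a8 (ENSMUSG00000032988), on chromosome 15 from 79251014 to 79254761, had 1, 2 and 1 counts in HETStra8 mice 1 to 3 and 0 in each KOStra8 mouse. It did not pass the filter, and no fold is given. A count of 0 allows up to 3 counts, or 0.0822 to 0.104 CPM in the KOStra8 libraries, a limit for counting error only that also lies above the HETStra8 values.

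RefSeq promoters (GRCm38.p6, 250 bases before to 50 after a start site) were at hand for 5 members, and those of Bsg and Slc16a7 were not matched. The promoters of MCT1, MCT4 and MCT3 are shown because they belong to a transporter at about 20 TPM, one near 2 TPM and one at the limit of detection. They read 5′ to 3′ on the strand of the gene, and capitals mark the letters ACGTG on either strand, the core of the site of hypoxia-inducible factors and also part of the E-box CACGTG, which is then counted on both strands.

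Slc16a1 (plus strand, chr3:104638414-104638713): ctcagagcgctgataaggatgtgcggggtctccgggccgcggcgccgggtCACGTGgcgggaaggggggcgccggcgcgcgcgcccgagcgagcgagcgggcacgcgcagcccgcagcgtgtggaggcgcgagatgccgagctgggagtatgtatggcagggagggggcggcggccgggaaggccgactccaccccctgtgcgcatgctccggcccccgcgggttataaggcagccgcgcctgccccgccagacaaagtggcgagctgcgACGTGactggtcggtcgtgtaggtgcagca
Slc16a3 (plus strand, chr11:120948817-120949116): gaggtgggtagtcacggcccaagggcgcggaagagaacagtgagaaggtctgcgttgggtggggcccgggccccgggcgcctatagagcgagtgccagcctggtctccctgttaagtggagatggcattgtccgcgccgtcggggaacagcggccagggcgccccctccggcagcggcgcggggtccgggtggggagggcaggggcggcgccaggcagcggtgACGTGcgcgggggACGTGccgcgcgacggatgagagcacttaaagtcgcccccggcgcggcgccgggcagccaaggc
Slc16a8 (minus strand, chr15:79254699-79254998): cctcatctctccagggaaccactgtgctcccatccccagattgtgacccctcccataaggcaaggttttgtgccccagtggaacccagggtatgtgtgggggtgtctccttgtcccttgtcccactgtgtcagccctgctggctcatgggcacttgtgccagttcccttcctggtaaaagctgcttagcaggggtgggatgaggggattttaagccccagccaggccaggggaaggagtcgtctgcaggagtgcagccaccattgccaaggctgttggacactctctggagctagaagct

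The promoter of Slc16a1 holds 42 CpG and that of Slc16a3 36, more than 96.9% and 93.7% of 32544 promoters, while that of Slc16a8 holds 1, more than 5.36% of them. The letters ACGTG were found 3 times for Slc16a1, 2 times for Slc16a3, 4 times for Nptn and 0 times for Emb and Slc16a8, and 19.7% of all promoters hold them. The consensus ER stress element, which 0.12% of all promoters hold, was found in 0 of the 5. The letters TATAAA, held by 13.6% of all promoters, were found in 0 of the 5 as well, and these matches describe letters in a window and not sites of binding.

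Genes around the members, given as mean ± SD of 3 HETStra8 and then of 3 KOStra8 mice, were followed in 5 lists, of which 35 of 41 genes were tested. Of these 35, 0 passed the adjusted p at any fold in edgeR's test, DESeq2 or limma-voom, against 0.0186% of all genes in edgeR's test. At an unadjusted p below 0.05 in edgeR's test, 2 were higher and 5 lower, beside 7.13% and 5.12% of all tested genes. The groups did not overlap in CPM for 3 higher and 6 lower genes, beside 9.33% and 8.43% of all tested genes. Their median log2 fold change was −0.12, with 26 of 35 lower.

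**Figure D4:**
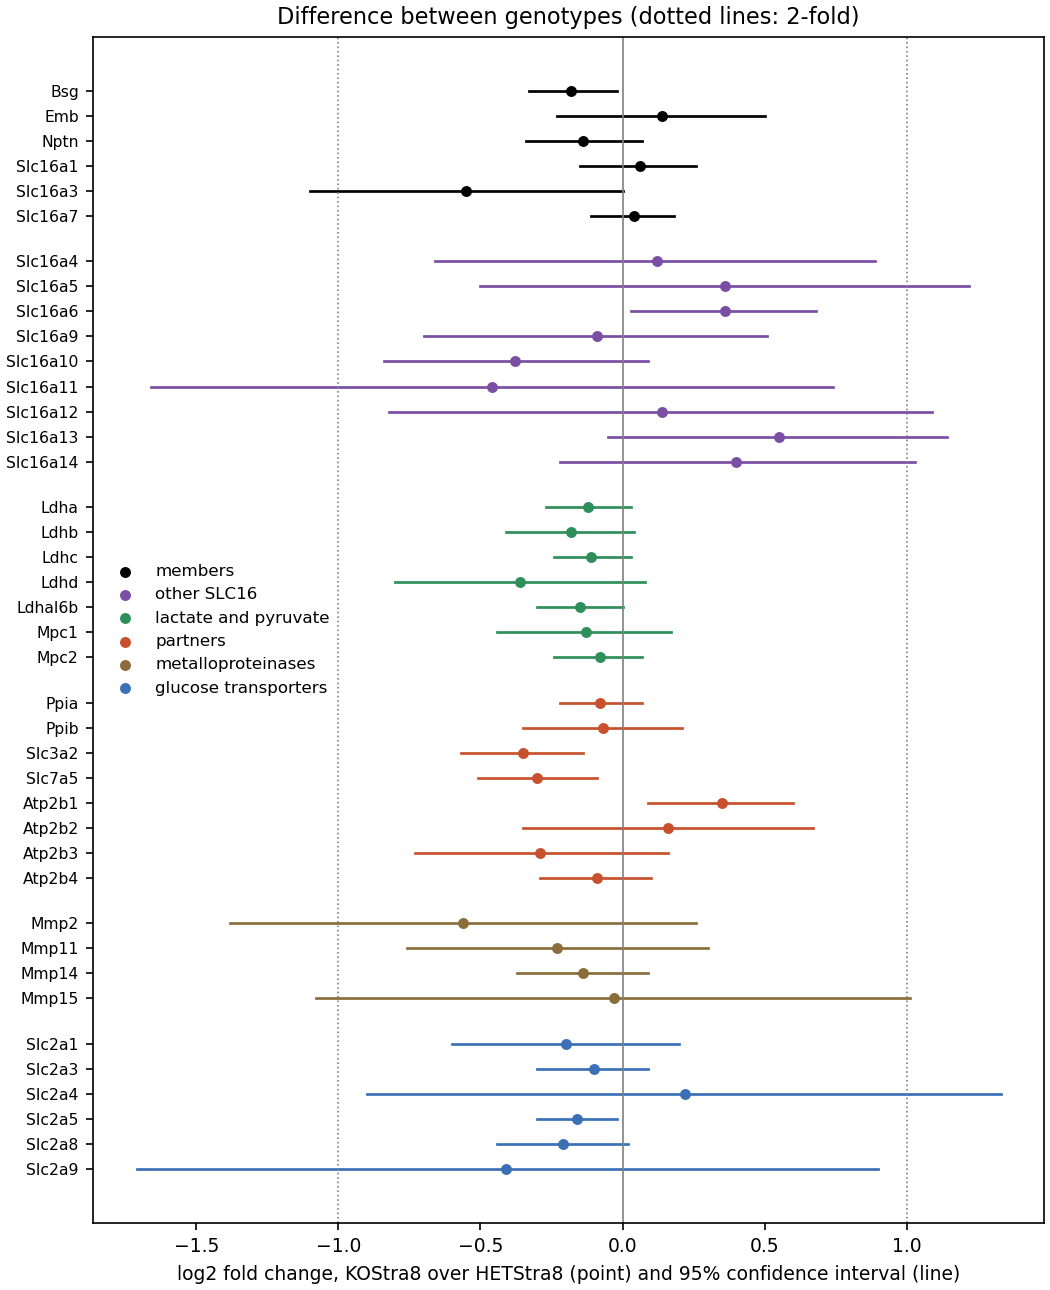
Log2 fold change of KOStra8 over HETStra8 (points) with 95% confidence intervals (lines) for the 6 tested members and the tested genes of the related lists, 1 gene left out; dotted lines mark 2-fold. Intervals of abundant genes such as Bsg and Slc16a7 are narrow, while those of genes at low counts such as Slc2a9 and Slc16a11 run past 2-fold.

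The partners of basigin and neuroplastin held the smallest p-values. CD98, the heavy chain Slc3a2 with the light chain LAT1 (Slc7a5), forms an amino acid carrier that associates with basigin in the membrane. Slc3a2 was at 101 ± 12.2 CPM in HETStra8 and 78.7 ± 6.87 CPM in KOStra8 testes (log2FC −0.35, 95% confidence interval −0.57 to −0.14, edgeR adjusted p = 0.193). Slc7a5 was at 138 ± 19.1 CPM and 112 ± 6.46 CPM (log2FC −0.30, 95% confidence interval −0.51 to −0.09, edgeR adjusted p = 0.252), and its log2FC was −0.19 without HETStra8 mouse 1. Both chains were lower in every KOStra8 mouse than in every HETStra8 mouse, as were 8.43% of all tested genes. For Slc7a5 the closest mice were HETStra8 mouse 3 at 121 CPM and KOStra8 mouse 1 at 119 CPM. With the correction for GC content and length they stood at −0.23 and −0.15, and without any filter on low counts Slc3a2 passed, with edgeR adjusted p = 0.00883, the lowest of a range up to 0.710 over the alternatives. Of the calcium pumps that neuroplastin and basigin bind, Atp2b1 was at 18.8 ± 2.28 CPM and 23.9 ± 1.93 CPM (log2FC 0.35, edgeR adjusted p = 0.285), and 0.17 with the correction. Atp2b4, the main pump of sperm, was at 172 ± 13.2 CPM and 161 ± 17.8 CPM, with overlap. Ppia, which encodes cyclophilin A, an extracellular ligand of basigin, was at 302 ± 13.9 CPM and 286 ± 4.71 CPM (log2FC −0.08, edgeR adjusted p = 0.666).

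The tested enzymes and carriers of lactate and pyruvate ranged, in the HETStra8 mean, from 7.16 CPM for Ldhd to 2550 CPM for Ldhc. All 7 tested genes of that list had a negative log2 fold change, with a median of −0.13 and 0 past the adjusted p of edgeR's test. At an unadjusted p below 0.05 stood 1 of them, Ldhal6b, a lactate dehydrogenase relative of the testis, beside 5.12% of all tested genes that were lower at that p. Ldhc, the lactate dehydrogenase of germ cells, was at 2550 ± 150 CPM in HETStra8 and 2370 ± 90.2 CPM in KOStra8 testes (log2FC −0.11, 95% confidence interval −0.24 to 0.03). Ldha was at 851 ± 70.5 CPM and 782 ± 12.7 CPM, and Ldhal6b at 735 ± 56.8 CPM and 662 ± 19.3 CPM. Ldhal6b was lower in all KOStra8 mice in CPM, as were 8.43% of all tested genes, while for Ldha the closest mice of the genotypes were both at 794 CPM and the genotypes overlapped in TPM. Ldhb, at 72.3 ± 8.80 CPM and 63.7 ± 6.59 CPM, overlapped. Ldha, Ldhal6b, Ldhb and the fructose transporter gene Slc2a5 have between 50 and 54% GC, a class of 4389 genes of which 68.3% were lower, with a median log2FC of −0.08. The sodium-coupled carrier Slc5a8 had 0 counts in every library, and Slc5a12 and the lactate receptor gene Hcar1 did not pass the filter.

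Sugar carriers supply the pathway upstream of lactate, and 5 of 6 had a negative log2 fold change, with a median of −0.18. Slc2a3, which encodes the glucose transporter of sperm, was at 1470 ± 224 CPM and 1370 ± 33.6 CPM, with overlap. Slc2a5, the fructose transporter, was at 810 ± 51.4 CPM and 724 ± 6.61 CPM (log2FC −0.16, edgeR adjusted p = 0.350). It was lower in all KOStra8 mice, as were 8.43% of all tested genes. Slc2a8 was at 45.2 ± 6.10 CPM and 39.1 ± 2.13 CPM, with overlap.

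The remaining SLC16 genes, of which 10 of 10 were tested, were each below 12 CPM in the mean of either genotype and divided into 6 higher and 4 lower. Slc16a6 was at 8.61 ± 0.118 CPM and 11 ± 1.68 CPM (log2FC 0.36, edgeR adjusted p = 0.368). Slc16a13 was at 1.70 ± 0.200 CPM and 2.49 ± 0.549 CPM, and Slc16a10, a carrier of aromatic amino acids, at 4.42 ± 0.983 CPM and 3.40 ± 0.128 CPM. The groups did not overlap for Slc16a6 and Slc16a13, both higher in KOStra8, as were 9.33% of all tested genes without overlap. Basigin is also known as an inducer of matrix metalloproteinases in other tissues, and of 7 such genes 4 were tested, with a median of −0.18 and 0 at an unadjusted p below 0.05 in edgeR's test, as also 0 past the adjusted p in DESeq2 or limma-voom. Mmp14 was at 20.8 ± 1.27 CPM and 19.0 ± 1.09 CPM, Mmp2 at 4.03 ± 0.416 CPM and 2.72 ± 1.67 CPM, and Mmp11 at 4.06 ± 0.762 CPM and 3.47 ± 0.961 CPM.

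**Figure D5:**
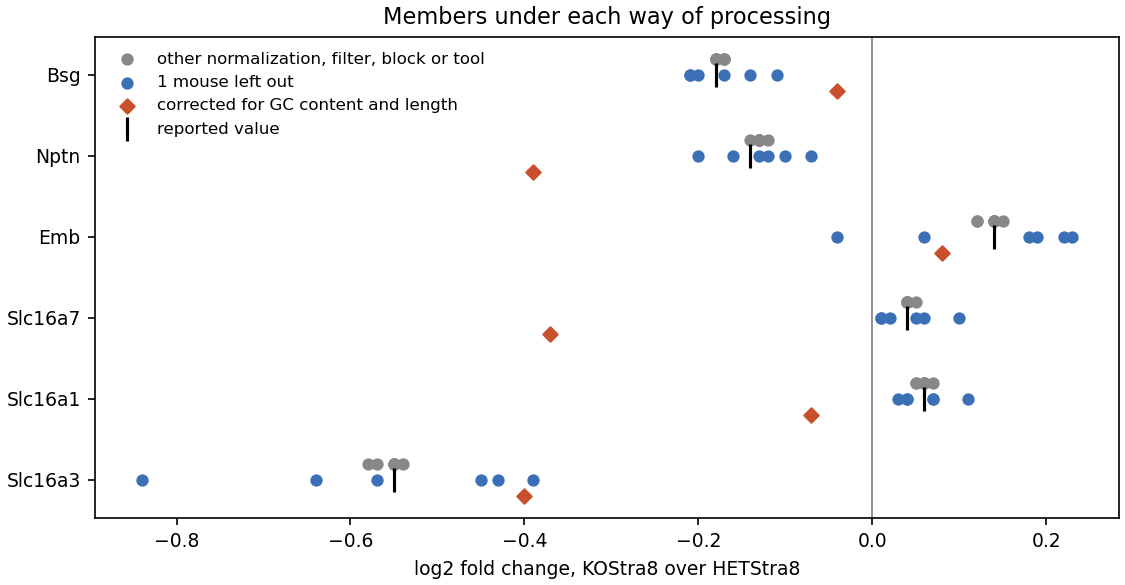
Log2 fold change of the 6 tested members as reported (black bars), with another normalization, filter, block or tool (grey), with 1 mouse left out (blue), and corrected for GC content and transcript length (orange diamonds). The correction takes Slc16a7 to −0.37, Nptn to −0.39 and Bsg to −0.04, outside what the other settings give for these 3 genes, and Slc16a3 spreads most when a mouse is left out.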

How the data were processed

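Testis poly(A)+ RNA of 3 HETStra8 and 3 KOStra8 mice was sequenced by the study from directional libraries in paired-end reads. The authors deposited raw counts per Ensembl gene, 1 table per mouse, without normalization. The submitters' processing notes list Trimmomatic, STAR 2.7.1a, Picard 2.20.4, StringTie 2.0.4, featureCounts 1.6.0 and HTSeq, with mm10 and GRCm38. The program and strand setting used for counting are not given in the sources used here. Symbols, positions, exon lengths and GC content came from GENCODE M21, which holds all 55536 identifiers.

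Testing was done with edgeR 4.0.16 under R 4.3.3 (filterByExpr, TMM, robust quasi-likelihood fit, two-sided F test, genotype as the only term, Benjamini-Hochberg adjustment over 21465 genes). Confidence intervals used the SE and degrees of freedom of that test. Log2 CPM used a prior count of 2. The members and lists were chosen with earlier results of these data known. Of each list, genes past an adjusted p of 0.01, or otherwise the 3 with the smallest p and the 3 with the highest CPM, are named, and for Bsg the 5 genes of highest Pearson r. The alternatives were DESeq2 size factors, library totals, no filter, at least 10 counts in every sample, a replicate block, loess offsets for GC content and length (span 0.3, genes above a log2 CPM of 2), DESeq2 1.42.0, limma-voom (limma 3.58.1), an adjusted p of 0.05, and leaving out each mouse. The fits of edgeR, DESeq2 and limma-voom, and those of edgeR with the offsets or the replicate block, were tested on simulated data. The other alternatives were not. The simulated libraries held no effect of GC content, length or replicate, so they cannot show whether the offsets or the block remove such an effect. The values of 1 listed gene are not reported here, though it is included in the counts over its list.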

Additional observations from a re-analysis of the deposited data

How the results depend on the processing

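Under the alternatives run, 0 members passed the adjusted p, and over 14 of them the log2 fold changes of Bsg, Nptn and Slc16a3 stayed negative, between −0.21 and −0.04, −0.39 and −0.07, and −0.84 and −0.39. With each mouse left out in turn they lay between −0.21 and −0.11 for Bsg, −0.20 and −0.07 for Nptn, −0.84 and −0.39 for Slc16a3, −0.04 and 0.23 for Emb (negative without KOStra8 mouse 1), 0.03 and 0.11 for Slc16a1, and 0.01 and 0.10 for Slc16a7. The offsets for GC content and length reversed Slc16a1, to −0.07, and Slc16a7, to −0.37, and moved Bsg to −0.04; GC content and length were corrected together, so their parts were not separated. The adjusted p of Bsg from edgeR's test, DESeq2 or limma-voom lay between 0.123 and 0.919, that of Nptn between 0.146 and 0.836 and that of Slc16a7 between 0.0908 and 0.982. Of the listed genes 1, Slc3a2, passed without a filter on low counts. Over all genes 2 passed both cutoffs, against 39 without a filter, 5 with the replicate block, 6 with DESeq2, and between 1 and 44 with a mouse left out, of which 44 belonged to the comparison without HETStra8 mouse 3; the cause was not tested. The deviations of same-numbered mice from their genotype means correlated at −0.06, −0.05 and 0.11, and those of differently numbered mice between −0.12 and 0.15. So few mice cannot exclude a pairing of the samples by litter or handling. Fitted with the replicate block, Bsg stood at −0.18 and Slc16a3 at −0.58. With 3 mice per genotype, the SE of Slc16a3 and Emb, 0.259 and 0.169, limits what could be seen, while DESeq2 gave no adjusted p for Slc16a3.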
